A study of Mus musculus with 6 samples.

Results

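Marker genes of non-parenchymal liver cells were examined in RNA-seq libraries of primary murine hepatocytes: 38 genes, given as a list by cell type, with no threshold on their values in the rule, of the 41388 Ensembl genes in the deposited table. The list holds 13 genes of Kupffer cells and other macrophages, 11 of endothelial cells, 10 of stellate cells and 4 of biliary cells. All 38 were found in the table by matching its identifiers to GENCODE M21 symbols. The 6 libraries came from hepatocytes of the C57BL/6J strain, freed from the liver by collagenase, kept overnight in growth medium and then given adenovirus at about 1000000 viral particles per 1000000 cells. RNA was taken 24 h later. In 3 libraries (β-gal, replicates 1, 2 and 3) the virus encoded β galactosidase, a control protein, and in 3 (Aloxe3, replicates 7, 8 and 9) it encoded Aloxe3, the gene of the lipoxygenase eLOX3. Both groups thus carried adenovirus, and no library without virus was analysed here. The labels do not say whether the replicates came from separate animals or cultures, so the p-values below measure only the spread between these libraries, which may be technical.

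Hepatocytes are the parenchymal cells of the liver. Kupffer cells, the resident macrophages, sit inside the sinusoids and clear particles from the blood, sinusoidal endothelial cells form a fenestrated wall with scavenger receptors, stellate cells store vitamin A and make collagen when activated, and biliary epithelial cells line the bile ducts. Collagenase can free such cells along with the hepatocytes, to an extent not measured here. Some markers are also made by hepatocytes themselves, particularly in culture.

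The table gives RPKM, reads scaled to exon length and library size, so levels can be compared between genes. The library sizes behind it, derived from the steps between values, were 25521908 to 32431318 reads, so that a single read on 1 kb of exon gave 0.0308 to 0.0392 RPKM. Aloxe3, the check of the labels, was at 2.04, 2.06 and 1.74 RPKM in the β-gal libraries and at 42.3, 45.8 and 56.3 RPKM in the Aloxe3 libraries. Of the 15 listed hepatocyte genes, 8 had a mean of at least 10 RPKM, led by Alb (serum albumin) at 4485 RPKM, and 12 were at 0.5 RPKM or more. Cps1, a urea cycle enzyme, was lower at 1.24 RPKM, as were the cytochromes P450 Cyp2e1 at 2.28 RPKM and Cyp3a11 at 0.648 RPKM. Genes were tested with limma on log2(RPKM + 1) where their mean was at least 0.5 RPKM. That left 12693 genes, of which 50 passed a Benjamini-Hochberg adjusted p of 0.05, and the median log2 fold change over all of them was 0.005.

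The levels of the 38 markers covered nearly the whole range of the transcriptome (plots of the levels by library and of their distribution). Of the markers, 6 had a mean of at least 10 RPKM: Spp1, Cd68, Cd14, Sox9, Cdh5 and Eng. At the other end, 9 had a mean under 0.1 RPKM, and Lrat was listed at 0 in every library. The median over the 24989 genes above 0 was 0.537 RPKM, and 21 of the 38 markers were at 0.5 RPKM or more. Within each list, high and low members stood side by side: 5 of the 13 macrophage genes, 3 of the 11 endothelial genes, 7 of the 10 stellate genes and 2 of the 4 biliary genes were under the level needed for testing. The lists therefore do not describe blocks of genes present at one common level, and each gene is described by its own values. In bulk RNA, fewer cells of a type and less RNA per cell cannot be told apart.

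**Figure D1:**
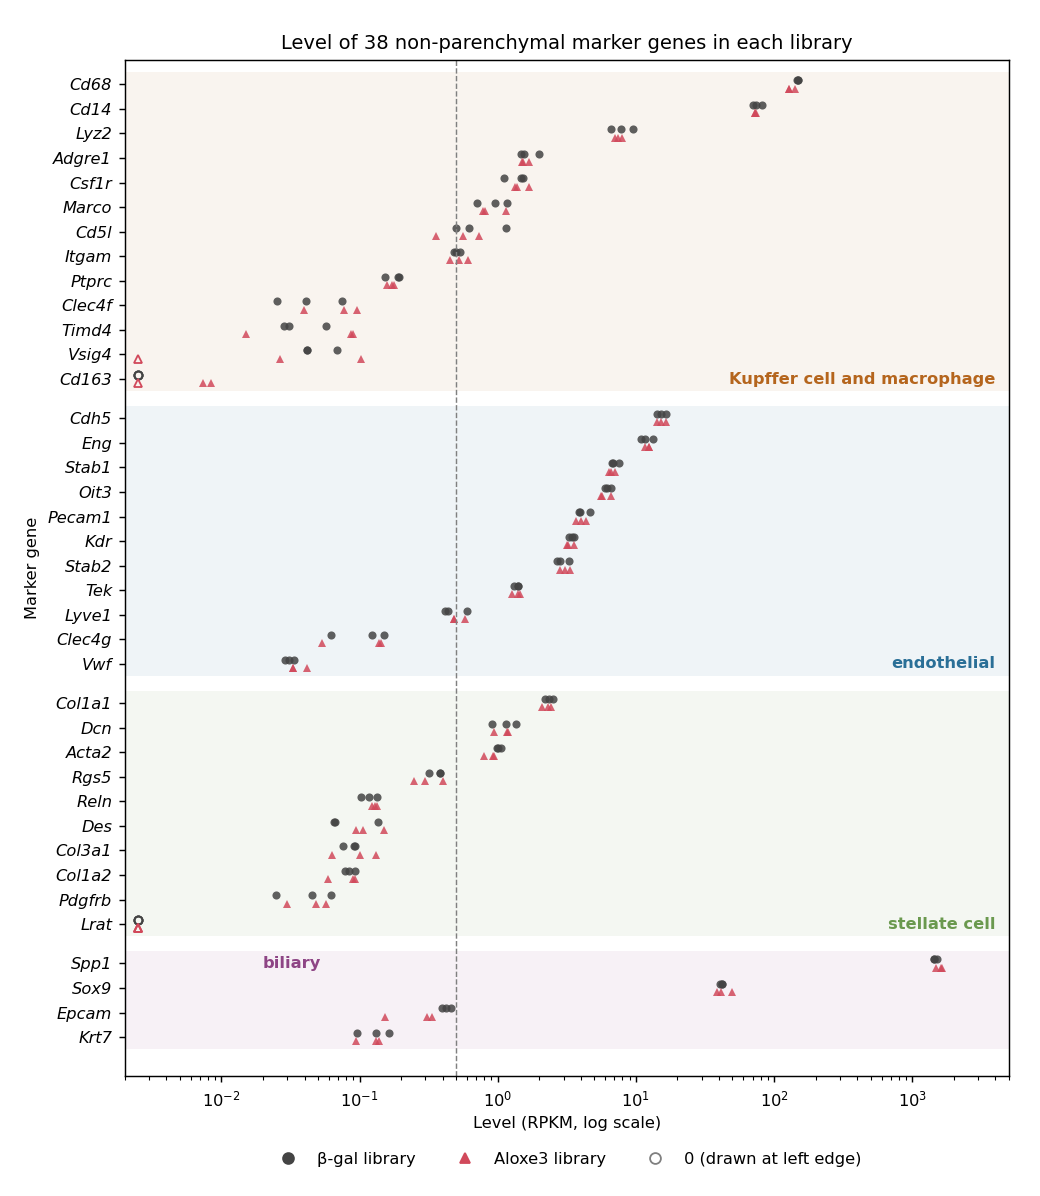
Level of each of the 38 marker genes in RPKM (log axis), 1 point per library, with β-gal libraries as grey circles and Aloxe3 libraries as red triangles, grouped by cell type and sorted by mean level. The dashed line is the 0.5 RPKM needed for testing, and open symbols at the left edge are values of 0. Spp1 lies at 1431 RPKM or above in every library, while Lrat is at 0 in all of them.

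**Figure D2:**
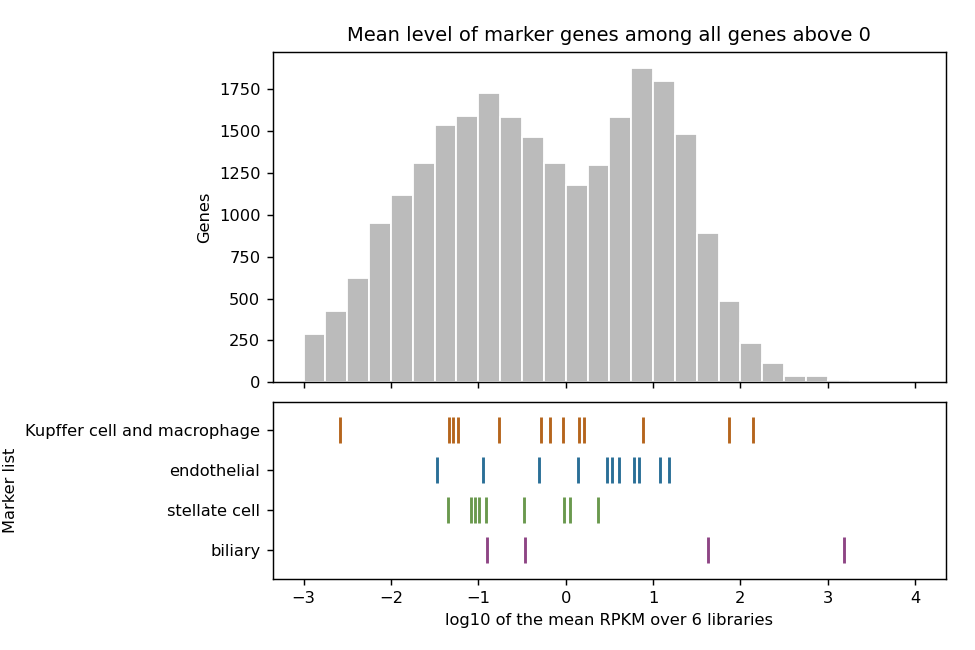
Histogram of the mean RPKM over 6 libraries (log10 scale) for the 24989 genes above 0, the lowest bin also holding the genes below it, and under it the mean of each marker above 0 as a vertical tick, 1 row per cell type. Endothelial ticks lie mostly between 1 and 20 RPKM, and stellate ticks mostly at or under 1 RPKM.

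Sequences were read for the genes on which the description turns. RefSeq promoters (GRCm38.p6) were matched for 26 of the 38 markers, and the 250 bases before the annotated start are used here. The 5 shown were picked with their levels known: the highest and a nearly silent gene of the macrophage list (Cd68 and Vsig4), a pair of abundant endothelial genes (Eng and Stab1), and the most abundant marker (Spp1). Capitals mark AGGAAG, a form of the core bound by ETS factors such as PU.1, or TATAAA, the TATA box, on either strand. CTTCCT thus marks the first motif on the other strand. Only exact matches were searched, so other forms of the core are not marked. The motifs do not overlap each other.
Cd68: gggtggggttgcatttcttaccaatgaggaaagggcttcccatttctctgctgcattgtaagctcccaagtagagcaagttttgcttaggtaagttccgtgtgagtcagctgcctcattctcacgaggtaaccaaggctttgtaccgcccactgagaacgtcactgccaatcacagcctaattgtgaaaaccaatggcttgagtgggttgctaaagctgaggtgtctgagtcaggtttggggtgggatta
Vsig4: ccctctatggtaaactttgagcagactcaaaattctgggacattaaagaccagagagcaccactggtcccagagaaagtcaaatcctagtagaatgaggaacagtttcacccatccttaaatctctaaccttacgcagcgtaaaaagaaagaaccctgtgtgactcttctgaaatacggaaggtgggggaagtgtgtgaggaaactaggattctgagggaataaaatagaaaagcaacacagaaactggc
Eng: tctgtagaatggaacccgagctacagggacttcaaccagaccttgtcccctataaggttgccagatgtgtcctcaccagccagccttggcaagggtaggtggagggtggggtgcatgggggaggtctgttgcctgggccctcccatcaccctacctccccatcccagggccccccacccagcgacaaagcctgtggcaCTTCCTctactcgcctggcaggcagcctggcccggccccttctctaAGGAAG
Stab1: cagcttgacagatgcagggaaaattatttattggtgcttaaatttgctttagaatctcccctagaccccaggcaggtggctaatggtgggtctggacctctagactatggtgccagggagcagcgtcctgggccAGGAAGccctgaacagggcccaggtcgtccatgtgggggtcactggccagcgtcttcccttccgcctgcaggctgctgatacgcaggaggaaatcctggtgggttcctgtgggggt
Spp1: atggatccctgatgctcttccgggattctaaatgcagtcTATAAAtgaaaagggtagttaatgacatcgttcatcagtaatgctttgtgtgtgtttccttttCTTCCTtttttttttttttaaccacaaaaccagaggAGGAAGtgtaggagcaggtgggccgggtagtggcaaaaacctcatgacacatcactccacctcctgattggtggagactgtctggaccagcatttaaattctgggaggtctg
The windows are chr11:69666171-69666420 (minus strand) for Cd68, chrX:96293439-96293688 (minus strand) for Vsig4, chr2:32646345-32646594 (plus strand) for Eng, chr14:31168642-31168891 (minus strand) for Stab1 and chr5:104434861-104435110 (plus strand) for Spp1. Neither exact motif was in the windows of Cd68 and Vsig4, although Cd68 was the most abundant gene of its list and Vsig4 was among the least. Both windows hold the near form aggaaa, which was not searched. AGGAAG was in the Stab1 window once and in those of Eng and Spp1 at 2 places each, and TATAAA was in the Spp1 window, 211 bases before the start. Over the 26 matched markers, AGGAAG was in 42.3% of the windows against 29.5% of all 32851 promoters, and TATAAA in 15.4% against 12.4%. By list, AGGAAG was in 5 of 10 macrophage, 4 of 6 endothelial, 0 of 7 stellate and 2 of 3 biliary windows. These matches are a description of letters in a window, not of binding.

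Among the macrophage markers, a pair of genes stood far above the rest. Cd68, a lysosomal glycoprotein, was at 148.6, 146.6 and 148.7 RPKM in the β-gal libraries and at 129.1, 128.8 and 141.4 RPKM in the Aloxe3 libraries. Cd14, the co-receptor for lipopolysaccharide, was at 69.9, 81.2 and 74.1 against 73.1, 74.5 and 72.5 RPKM. Lyz2, a secreted lysozyme, followed at 9.50, 7.75 and 6.65 against 7.98, 7.04 and 7.41 RPKM. Cd68 ranked 275th from the top among all genes and Cd14 673rd, whereas the other 11 macrophage markers summed to only 11.6 to 16.1 RPKM per library. All 13 summed to 234.5 to 240.6 RPKM in the β-gal and 215.3 to 226.9 RPKM in the Aloxe3 libraries. These sums did not overlap, as for Cd68 alone, which with Cd14 made up most of them.

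The macrophage receptors Adgre1 and Csf1r were between 1 and 2 RPKM, and several other receptors of the list were lower. Adgre1, which encodes the F4/80 antigen, was at 1.99, 1.47 and 1.55 RPKM in the β-gal and at 1.52, 1.67 and 1.49 RPKM in the Aloxe3 libraries. Csf1r, the receptor for the growth factor CSF1, was at 1.54, 1.48 and 1.11 against 1.38, 1.34 and 1.68 RPKM. The groups overlapped for both Adgre1 and Csf1r. Marco, a scavenger receptor, had a mean of 0.927 RPKM, Cd5l, a secreted protein of tissue macrophages, 0.653 RPKM, and Itgam, the integrin chain CD11b, 0.518 RPKM. The ratio of Cd68 to Adgre1 was 74.8 to 99.5 over the 6 libraries, with β-gal libraries at both ends.

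The 4 least abundant macrophage markers had at most 6 reads in any library. Clec4f, a lectin receptor used as a Kupffer cell marker in the mouse, had 2, 6 and 3 reads in the β-gal libraries and 6, 3 and 5 in the Aloxe3 libraries. Vsig4, a complement receptor, had 2, 2 and 3 against 1, 0 and 4 reads, and Timd4, a receptor for phosphatidylserine, 2, 4 and 2 against 5, 1 and 5 reads. Cd163, the haemoglobin scavenger receptor, was at 0 in all β-gal libraries and at 0, 0.00732 and 0.00842 RPKM in the Aloxe3 libraries. At these depths a few reads decide each value, and the size of difference that could be detected in the 4 genes was not tested. Ptprc, the pan-leukocyte antigen CD45, had 80 to 110 derived reads per library but a mean of only 0.173 RPKM.

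Lyz2 has a close copy, Lyz1, next to it on chromosome 10, and reads shared by both would be lost from a count of uniquely aligned reads. Over their coding sequences of 444 bases, 22 bases differ, an identity of about 95%, and of 395 windows of 50 bases, the read length, 80 are identical in both genes. The window below shows coding bases 77 to 126 (GRCm38, chr10:117282117-117282166 for Lyz2 and chr10:117292713-117292762 for Lyz1, both on the minus strand), with the 8 bases that differ in capitals. It was chosen as a stretch in which a read of 50 bases tells the genes apart.
Lyz2: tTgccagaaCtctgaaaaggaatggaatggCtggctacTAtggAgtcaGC
Lyz1: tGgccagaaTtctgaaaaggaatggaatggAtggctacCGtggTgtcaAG
Lyz1 was at 0 to 0.0898 RPKM, with at most 3 reads in a library, against 248 to 388 for Lyz2, so nearly all reads that could be assigned to the pair were from Lyz2.

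Of the 8 macrophage markers tested, none passed the adjusted threshold with limma or with voom, a test of the reads derived from the RPKM values, and 1, Cd68, had an unadjusted p under 0.05 with either. By limma 2 had a positive and 6 a negative log2 fold change, and their median was -0.04, against 0.005 over all tested genes. The share of all tested genes that passed with limma was 0.394%. Cd68 had a log2 fold change of -0.15 ± 0.04 (SE, n = 3 per group, 95% interval -0.26 to -0.05, limma adjusted p = 0.262), with an unadjusted p under 0.05. Every Aloxe3 library was below every β-gal library for Cd68, with means of 133.1 ± 7.21 and 147.9 ± 1.20 RPKM (SD). Groups without overlap were found in 19.9% of all tested genes and an unadjusted p under 0.05 in 12.7%, so a gene of this kind is common in these data. The unadjusted p of Cd68 stayed under 0.05 in each of the 13 alternatives, while its adjusted p was 0.0859 to 0.556. The intervals of the other 7 reached from -0.52 for Cd5l to 0.27 for Csf1r on the log2 scale. Exons of Itgam (68.7%) share bases in GENCODE M21 with another gene model on the same strand, and those of Csf1r (15.1%) with Hmgxb3 on the other strand. The library kit does not mark strand and ambiguous reads were not counted, so the levels of both are uncertain, although the annotation used for the counting was an earlier one.

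β-gal replicate 1 had the highest level of the 6 libraries for 4 of the 8 tested macrophage markers, Adgre1, Lyz2, Marco and Cd5l. It was the highest for 15.5% of all tested genes. For Cd5l it was at 1.16 RPKM against 0.355 to 0.731 RPKM in the others. Without it the log2 fold change of Adgre1 became 0.03, that of Lyz2 0.05 and that of Marco 0.06, each positive where all libraries gave a negative value, and the median of the list became 0.03. The negative median of the macrophage markers therefore rested on 1 library, although Cd68 itself was at -0.15 without it.

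Of the 11 endothelial markers, 8 were above 1 RPKM in every library. Cdh5 (VE-cadherin), the adhesion protein of endothelial junctions, was at 16.4, 14.2 and 15.1 RPKM in the β-gal libraries and at 16.6, 14.2 and 15.2 RPKM in the Aloxe3 libraries. Eng (endoglin), a co-receptor of the TGFβ family, was at 13.24, 10.98 and 11.62 against 12.4, 11.7 and 12.4 RPKM. The groups covered nearly the same range for Cdh5, and for Eng the Aloxe3 libraries lay inside the wider range of the β-gal libraries. Stab1, a scavenger receptor of sinusoidal endothelium and macrophages, was at 7.52, 6.75 and 6.78 against 7.03, 6.55 and 6.42 RPKM, and Stab2, its relative that takes up hyaluronan, was at 3.29, 2.71 and 2.83 against 3.35, 2.81 and 3.05 RPKM. Stab1 exceeded Stab2 by 2.10 to 2.49 times in every library.

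The other tested endothelial genes were lower than Cdh5 and Eng, with means of 1.38 to 6.10 RPKM. Oit3, a gene of liver sinusoidal endothelium, had a mean of 6.10 RPKM, Pecam1 (CD31), a junction protein, 4.09 RPKM, Kdr, the VEGF receptor VEGFR2, 3.38 RPKM, and Tek, the angiopoietin receptor TIE2, 1.38 RPKM. Lyve1, a hyaluronan receptor of sinusoidal and lymphatic endothelium, was just under the limit for testing, at 0.594, 0.438 and 0.415 against 0.481, 0.580 and 0.479 RPKM. Clec4g (LSECtin), a lectin of sinusoidal endothelium, had only 4 to 12 reads per library. Vwf, von Willebrand factor, which marks larger vessels, had 14 to 17 reads over a long transcript, a mean of 0.0334 RPKM. The list thus held several genes of endothelium in general at 1 RPKM or more, and of the more specific sinusoidal genes Stab2 and Oit3 were above that level while Clec4g and Lyve1 were not.

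None of the 8 tested endothelial markers passed the threshold and none had an unadjusted p under 0.05, where the shares over all tested genes were 0.394% and 12.7%. With voom, too, the counts were 0 at the adjusted threshold and 0 at an unadjusted p under 0.05. By limma 4 of the genes had a positive and 4 a negative log2 fold change, from -0.06 for Stab1 to 0.05 for Stab2, with a median of -0.01. Leaving out β-gal replicate 1 turned the median to 0.02, and leaving out Aloxe3 replicate 7 gave -0.06. Their 95% intervals ran from -0.22 to 0.22, which is from -13.9% to 16.4% in RPKM + 1. The widest intervals were those of Pecam1 and Stab2, and that of Stab1, the farthest from 0 on the negative side, was -0.19 to 0.06. The summed level of the 11 genes was 49.8 to 57.0 RPKM in the β-gal and 49.8 to 56.1 RPKM in the Aloxe3 libraries.

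The endothelial markers shared their highest libraries, 1 in each group (plot of marker levels by library). β-gal replicate 1 had the highest level of its group for 7 of the 8 genes, where this held for 32.2% of all tested genes, and Aloxe3 replicate 7 had the highest of its group for 7 of 8, against 35.6%. Their medians on the log2(RPKM + 1) scale lay 0.10 and 0.07 above the mean of the 6 libraries, and those of the remaining 4 libraries at -0.07 to -0.02. The medians over all tested genes lay within -0.02 to 0.01. With the libraries rescaled to the same median, replicates 1 and 7 were still the highest of their groups for 7 of 8 genes each. The ratio of Cdh5 to Pecam1, 3.52 to 3.86, overlapped between the groups. β-gal replicate 1 had 32265997 reads and Aloxe3 replicate 7, the shallowest library, 25521908, and the part of depth in this spread was not tested. These counts were chosen with the values known.

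**Figure D3:**
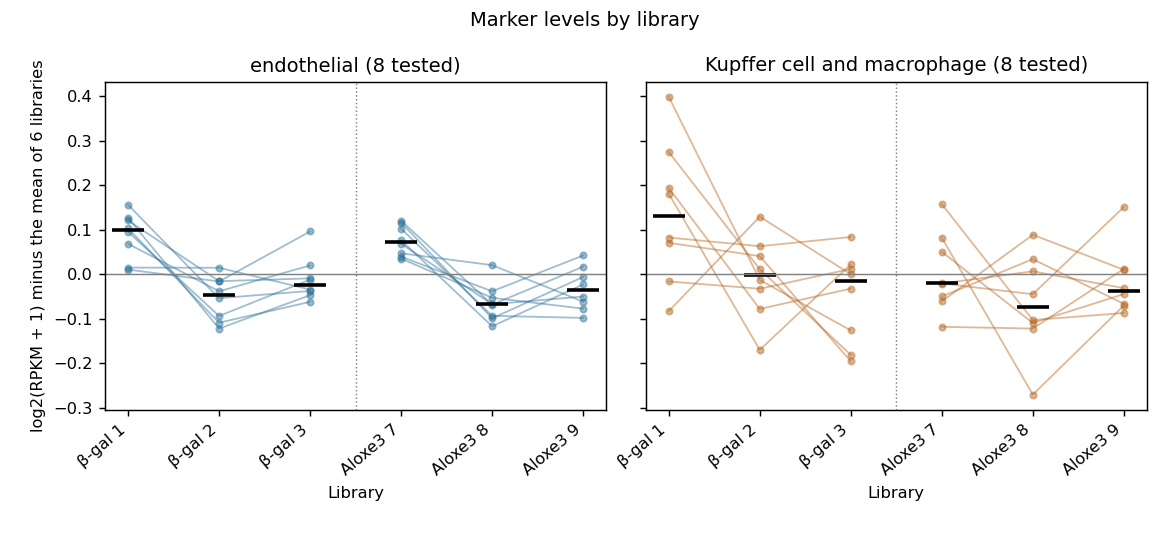
log2(RPKM + 1) of each tested endothelial (left) and macrophage (right) marker minus its mean over 6 libraries, by library. Lines join the values of 1 gene within a group and imply no order, the black bars are medians, and the dotted line separates the groups. Endothelial markers are higher in β-gal replicate 1 (median 0.10) and Aloxe3 replicate 7 (0.07), and macrophage markers in β-gal replicate 1 (0.13).

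Stellate cell markers were the lowest of the lists, with a median of 0.113 RPKM over the means of the 10 genes, against 0.653 RPKM for macrophage, 3.38 RPKM for endothelial and 21.3 RPKM for biliary markers. Col1a1, the α1 chain of type I collagen, was at 2.53, 2.37 and 2.20 RPKM in the β-gal and at 2.42, 2.08 and 2.30 RPKM in the Aloxe3 libraries. Its partner chain Col1a2, with which it forms the same protein, was at 0.0919, 0.0788 and 0.0836 against 0.0904, 0.0922 and 0.0592 RPKM. Col1a1 was thus 22.6 to 38.8 times higher than Col1a2 in every library, a ratio that holds per length. Col3a1, the chain of type III collagen, was at 0.0637 to 0.132 RPKM, close to Col1a2.

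Of the other stellate markers, Lrat was at 0, and Des and Pdgfrb had at most 15 reads per library. Lrat, the enzyme that esterifies retinol for storage, had no read in any library, which with 3 counts as the limit allows up to 0.0173 to 0.0220 RPKM over its exon length of 5351 bases in GENCODE M21. Des (desmin), an intermediate filament, had 8, 8 and 15 reads against 9, 12 and 15, and Pdgfrb, the receptor for PDGF-B, 11, 8 and 4 against 8, 5 and 7. Reln (reelin), an extracellular glycoprotein, was at 0.103 to 0.133 RPKM and Rgs5, a regulator of G-protein signalling in pericytes, at 0.2498 to 0.3992 RPKM. Dcn (decorin), a matrix proteoglycan, was at 1.15, 1.35 and 0.909 against 1.17, 1.18 and 0.944 RPKM. Intervals and limits from reads cover counting error only.

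Acta2, smooth muscle α-actin and a mark of activated stellate cells, was at 0.992, 1.00 and 1.06 RPKM in the β-gal libraries and at 0.924, 0.794 and 0.935 RPKM in the Aloxe3 libraries. The groups did not overlap, as in 19.9% of all tested genes, on 42 to 58 derived reads per library. On the log2(RPKM + 1) scale the fold change was -0.10 ± 0.06 (SE, limma adjusted p = 0.540), and it was -0.19 with a pseudocount of 0.1 and -0.21 with voom, which did not pass the threshold either. Of the 10 stellate markers only Acta2, Col1a1 and Dcn could be tested. None of the 3 passed the threshold (0.394% of all tested genes did), none had an unadjusted p under 0.05 with limma or with voom, and their median log2 fold change was -0.04, with intervals between -0.25 and 0.19. The summed level of the list was 5.01 to 5.48 RPKM in the β-gal and 4.78 to 5.26 RPKM in the Aloxe3 libraries.

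The biliary list was split between a pair of abundant genes and a pair of scarce ones. Spp1 (osteopontin), a secreted matrix glycoprotein, was at 1447, 1431 and 1509 RPKM in the β-gal libraries and at 1638, 1618 and 1484 RPKM in the Aloxe3 libraries. It ranked 21st from the top among all genes, and its level was 0.316 to 0.367 times that of Alb. Sox9, a transcription factor of biliary and progenitor cells, was at 41.9, 42.0 and 40.6 against 38.3, 41.4 and 49.3 RPKM. Krt7, a keratin of bile duct epithelium, was at 0.163, 0.131 and 0.0959 against 0.0944, 0.131 and 0.139 RPKM, so that the most and the least abundant gene of the list differed by about 4 orders of magnitude.

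Epcam, the epithelial cell adhesion molecule, was at 0.456, 0.423 and 0.398 RPKM in the β-gal libraries and at 0.154, 0.306 and 0.334 RPKM in the Aloxe3 libraries. The groups did not overlap, as in 8.4% of all untested genes above 0, and the values rest on 30, 28 and 24 against 8, 19 and 18 derived reads. An exact permutation test gave a two-sided p of 0.1, the smallest that 3 against 3 libraries allow. Epcam had too low a mean for the main test, and with no filter on low values its log2 fold change of RPKM + 1 was -0.18 ± 0.06 (SE, limma adjusted p = 0.506), with an unadjusted p under 0.05. The ratio of the group means, 0.426 and 0.265 RPKM, was larger, at -0.69 on the log2 scale without a pseudocount. Leaving Aloxe3 replicate 7 aside, the nearest values of the groups were 0.398 and 0.334 RPKM. Epcam and Krt7 together summed to 0.494 to 0.618 RPKM in the β-gal and 0.248 to 0.473 RPKM in the Aloxe3 libraries, while Krt7 alone overlapped. All 4 biliary genes summed to 1474 to 1551 RPKM in the β-gal and 1534 to 1677 RPKM in the Aloxe3 libraries. Nearly all of that sum was Spp1, and the groups overlapped.

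Both tested biliary markers had a positive log2 fold change and neither passed the threshold that 0.394% of all genes passed, nor had an unadjusted p under 0.05 with limma, as 12.7% did. For Spp1 it was 0.11 ± 0.05 (SE, 95% interval -0.01 to 0.23, limma adjusted p = 0.433). Aloxe3 replicates 7 and 8 were above all β-gal libraries for Spp1 and replicate 9 was not. The unadjusted p fell under 0.05 in 2 of the other limma fits. Without replicate 9 the log2 fold change was 0.15 ± 0.04 with an adjusted p of 0.268, with quantile normalization it was 0.18 with an adjusted p of 0.419, and with voom Spp1 had an unadjusted p under 0.05 and an adjusted p of 0.248. For Sox9 the log2 fold change was 0.04 ± 0.08 (limma adjusted p = 0.869), and the same replicate 9 was the highest of the 6 libraries. Without it the value was -0.06. In GENCODE M21, 18.75% of the exon bases of Spp1 are shared with another gene model on the same strand. Its level is therefore uncertain by an unknown amount, although the annotation used for the counting was an earlier one.

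Over all 38 markers, 21 could be tested and none was called by limma or with voom. The shares of all tested genes called were 0.394% with limma and 1.35% with voom. By limma 1 of the 21 had an unadjusted p under 0.05, Cd68, where the share over all tested genes was 12.7%. With voom 2 did, Cd68 and Spp1, where the share was 14.5%. Non-overlapping groups were found in 2 of the 21, Cd68 and Acta2, both lower with Aloxe3, where the share over all tested genes was 19.9%. The median log2 fold change of the 21 was -0.03, with 8 positive and 13 negative values. All 95% intervals lay between -0.52 and 0.27 (plot of the changes with their intervals), which is from -30.4% to 20.5% in RPKM + 1. On this scale the change of a gene near 1 RPKM is understated, as for Cd5l, at -0.17 here and at -0.37 with a pseudocount of 0.1 and -0.47 with voom. For the 16 untested markers above 0, exact permutation p-values were 0.1 for Epcam and 0.3 to 1 for the others, in a design that cannot go below 0.1. Epcam was the only one of the 16 without overlap, and the share was 8.4% over the 12296 untested genes above 0.

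**Figure D4:**
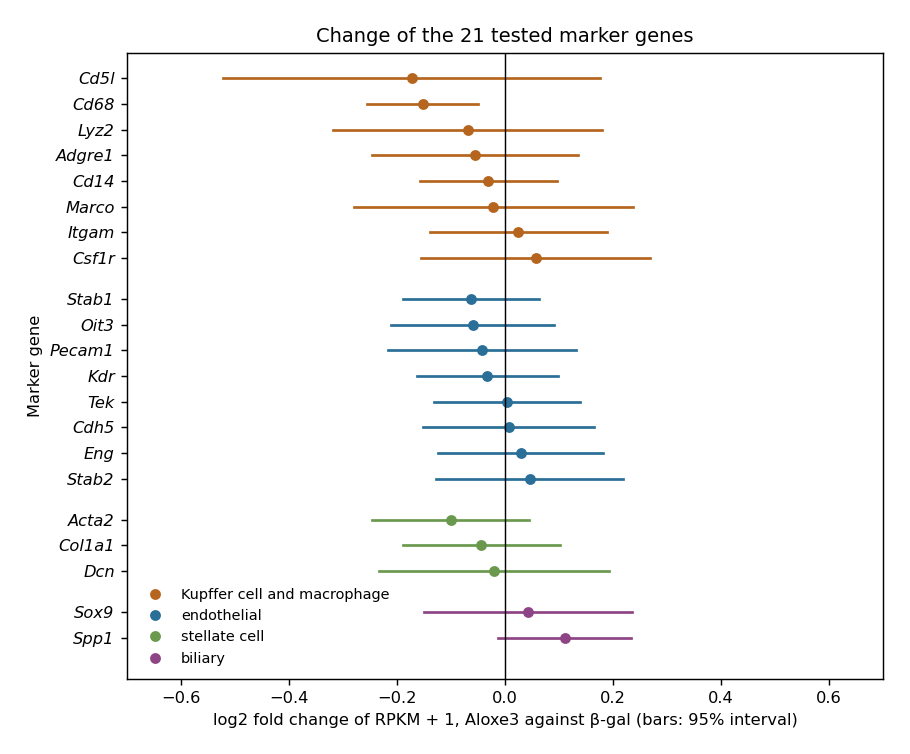
log2 fold change of RPKM + 1 (Aloxe3 against β-gal, 3 libraries each) of the 21 tested marker genes, with 95% intervals from limma as bars, coloured and grouped by cell type. The interval of Cd68 (-0.26 to -0.05) does not reach 0, whereas those of the other 20 genes do.

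Further genes of the same cell types, 79 in all, were read from the same fit, and 44 of them could be tested. None passed the threshold with limma, 5 had an unadjusted p under 0.05, and their median log2 fold change was -0.02. The corresponding shares over all tested genes were 0.394% and 12.7%. With voom the same 5 had an unadjusted p under 0.05, against 14.5% of all tested genes, and 2 of them, Mpeg1 (adjusted p = 0.0316) and Cldn4 (adjusted p = 0.0130), passed, against 1.35%. Means of 10 RPKM or more were few, with 1 such gene in each of the further macrophage and endothelial lists. Mpeg1, a pore-forming protein of macrophages, had a mean of 20.7 RPKM and Fcer1g, the common γ chain of Fc receptors, 5.62 RPKM, whereas 7 of the 22 further macrophage genes were under the limit. The log2 fold change was 0.33 for Mpeg1 (limma adjusted p = 0.249) and -0.24 for the protease Ctss (limma adjusted p = 0.161), both with an unadjusted p under 0.05. Of 21 further endothelial genes, 16 could be tested, led by the VEGF-C receptor Flt4 at 18.9 RPKM and Plvap, a protein of endothelial fenestrae, at 8.95 RPKM. The smallest p-values were those of Esam (-0.21) and Tie1 (-0.10), and β-gal replicate 1 was the highest of the 6 libraries for 9 of the 16, against 15.5% of all tested genes. Aloxe3 replicate 7 was the highest of its group for only 7 of the 16, or 5 of the 16 after rescaling to the same median. Among the 15 tested further macrophage genes, β-gal replicate 1 and Aloxe3 replicate 7 were each the highest of their group for 10, against 32.2% and 35.6% of all tested genes. After rescaling to the same median replicate 7 was the highest for 8 of the 15, and it was the highest of its group for only 3 of the 8 tested macrophage markers.

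Among 24 further stellate genes only 9 could be tested, and the intermediate filament Vim dominated at 1250, 1060 and 1131 RPKM in the β-gal and 1068, 929.1 and 980.7 RPKM in the Aloxe3 libraries (log2 fold change -0.21, limma adjusted p = 0.326). Lhx2, a LIM homeobox factor of stellate cells that was too low for testing, was at 0.219, 0.112 and 0.177 RPKM in the β-gal and 0.357, 0.277 and 0.491 RPKM in the Aloxe3 libraries, without overlap, on 16 to 57 reads per library. With no filter on low values it had an unadjusted p under 0.05 and a limma adjusted p of 0.437. Of the 35 untested further genes, 6 had groups without overlap, 3 higher and 3 lower with Aloxe3, against 8.4% of all untested genes above 0. Lhx2, 1 of these 6, was chosen for naming with its values known. Vim at this level stood beside Des, Pdgfrb and Lrat at under 0.2 RPKM. Ecm1 had 55.5 RPKM, and Hgf, the growth factor for hepatocytes, had the next smallest p (-0.08). Of the 12 further biliary genes, 4 could be tested. Cldn4, a claudin of epithelial tight junctions, was at 635.3, 641.7 and 605.1 against 547.4, 556.4 and 522.2 RPKM, with a log2 fold change of -0.21 (limma adjusted p = 0.138). It was lower in every Aloxe3 library. Groups did not overlap in 5 of the 44 tested further genes, against 19.9% of all tested genes. The keratin Krt19 was at 40.7 RPKM, 252.0 to 439.1 times Krt7 per library, and Krt23 (0.16) had the next smallest p. The abundant further biliary genes were thus found beside Spp1 and Sox9, while Epcam and Krt7 stayed low.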

How the data were processed

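RNA from primary murine hepatocytes was sequenced as single reads of 50 bases in 1 run and lane, 3 libraries per group, with groups and replicate numbers taken from the sample titles. Replicate numbers are not shared between the groups. Per the labels and the study's methods, poly-A RNA with a RIN above 8 was used, reads were aligned with STAR 2.0.4b to the Ensembl release of GRCm38, and uniquely aligned unambiguous reads were counted per gene with featureCounts 1.4.5. The authors deposited these values as RPKM for 41388 genes, and how counts became RPKM is not given in the sources used here.

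Library sizes and reads per gene were derived from the whole-number steps of the RPKM values (tolerance 0.02 read) with GENCODE M21 exon lengths for 16539 genes. For 8450 genes the length was searched, so that their reads are known up to a common factor. Derived reads summed to 99.9% of each library size. Symbols matched for 40254 identifiers and not for 1134. Replicates differed by more than sampling noise (chi-square per degree of freedom 3.49 to 9.77), so none was a copy of another library's reads. This cannot show whether they came from separate animals or cultures. The largest values, 8.94 and 9.77, were those of Aloxe3 replicate 9 against replicates 7 and 8.

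Values were transformed to log2(RPKM + 1) and fitted by lmFit and moderated by eBayes, with a variance trend, from limma 3.58.1 (R 4.3.3). Only genes averaging 0.5 RPKM or more over the 6 libraries entered, 12693 in all, and p-values were adjusted by Benjamini-Hochberg over all of them at 0.05. The script was tested on simulated data. Alternatives were a pseudocount of 0.1, no filter, a filter at 5 RPKM, quantile normalization, libraries rescaled to an equal median, eBayes without trend, voom on the derived reads, and each library left out in turn. The markers and all further lists were chosen with earlier results of these data known. The genes named are all 38 markers, Aloxe3, the listed hepatocyte genes, Lyz1, and of each further list the 2 with the highest mean RPKM and the 2 with the smallest p. The ratios, the sums without the most abundant genes, the counts of highest libraries and the sequences shown were chosen with the values known. Tables were handled with pandas 2.3.3 in Python 3.11.15.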

Additional observations from a re-analysis of the deposited data

How the results depend on the processing

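No marker was called in any of the 13 alternatives, with the lowest adjusted p at 0.0859 (Cd68 without Aloxe3 replicate 9). In the main fit only 0.394% of all tested genes were called, and with voom 1.35%. The count of called genes over the whole table depended on the setting, from 50 to 7 without the filter, 171 with voom and 6 to 19 with 1 library left out, and the cause was not tested. The median log2 fold change of the biliary markers moved from 0.08 to 0.016 without the filter, when Epcam and Krt7 enter it, and to 0.117 with quantile normalization. With a filter at 5 RPKM no stellate marker was left. The log2 fold change kept its sign for 8 of the 21 tested markers in the alternatives in which each was fitted, and changed it in at least 1 for 13. The filter at 5 RPKM kept only 9 of the 21, and 4 of the 8 (Acta2, Cd5l, Col1a1 and Kdr) were not among them. A pseudocount of 0.1 or voom made values of genes near 1 RPKM larger, as for Acta2 and Cd5l. With quantile normalization Cd14 became 0.0035, Itgam -0.011 and Tek -0.044, and with rescaling to the same median Cdh5 became -0.0062 and Tek -0.0049. With 1 library left out, the ranges of those that changed sign were Adgre1 -0.11 to 0.028, Cd14 -0.080 to 0.026, Csf1r -0.027 to 0.11, Marco -0.11 to 0.063, Lyz2 -0.18 to 0.050, Itgam -0.013 to 0.062, Pecam1 -0.092 to 0.025, Cdh5 -0.049 to 0.059, Stab2 -0.0030 to 0.11, Tek -0.019 to 0.035, Eng -0.025 to 0.099, Dcn -0.099 to 0.050 and Sox9 -0.059 to 0.12. No paired analysis was possible because the groups share no replicate number. Depth limits Clec4f, Vsig4, Timd4, Cd163, Des and Pdgfrb, for which a few reads decide a value.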

Other observations

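Markers of cell types other than the 4 lists were mostly at or near 0. None of the 11 lymphocyte genes and none of the 8 granulocyte genes reached 0.5 RPKM on average, and 9 of the 11 and 5 of the 8 had at most 3 reads in any library. Ms4a1, Nkg7 and Gzma were at 0 in all 6 libraries. Csf3r, the receptor for the granulocyte growth factor, was the highest of the granulocyte genes with 0.308 RPKM. The α-globin gene Hba-a1 was at 0.458 RPKM in β-gal replicate 1, at 0.0416 RPKM in β-gal replicate 3 and at 0 in the other libraries, and the β-globin gene Hbb-bs was likewise highest in β-gal replicate 1, at 0.646 against 0 to 0.117 RPKM. Alas2, the erythroid form of the first enzyme of heme synthesis, was at 2.70 to 3.13 RPKM in all libraries. Of 4 mesothelial genes only Msln (mesothelin) was tested, with 0.8357, 0.7001 and 0.5918 against 1.17, 0.685 and 0.752 RPKM (log2 fold change 0.12, limma adjusted p = 0.676). The genes named here beyond the fixed naming rule were chosen with their values known.

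The hepatocyte genes not described above had means of 243.9 RPKM (Apob), 234.9 RPKM (Apoa1), 220.3 RPKM (Ahsg), 112.3 RPKM (Ttr), 105.4 RPKM (Trf), 27.2 RPKM (Hnf4a), 12.1 RPKM (Ass1), 1.76 RPKM (Asgr1), 0.428 RPKM (Tat), 0.0774 RPKM (Pck1) and 0.0661 RPKM (G6pc). Of the 12 tested, 8 had a positive and 4 a negative log2 fold change. With limma 1 passed the threshold, against 0.394% of all tested genes. It was Ttr (transthyretin), which fell from 118.9, 131.4 and 122.1 RPKM to 99.4, 101.5 and 100.6 RPKM (log2 fold change -0.30, limma adjusted p = 0.0448). With voom 3 passed, against 1.35% of all tested genes: Ttr again, and Ahsg (voom log2 fold change 0.21, adjusted p = 0.0313) and Cps1 (0.59, adjusted p = 0.0141), both higher with Aloxe3.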
